A study of Mus musculus with 9 samples.

Results

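The 10 endothelial marker genes Stab1, Stab2, Lyve1, Clec4g, Kdr, Cdh5, Pecam1, Plvap, Vwf and Cd34 were followed by whole-liver RNA sequencing of 9 liver samples. They were taken by gene symbol from a count table of 55401 genes, and all 10 were among the 15717 genes that passed the filter on low counts. Each of 3 groups held 3 livers: healthy, untreated hepatocellular carcinoma (HCC) and HCC treated with miR-22. All mice were female, were labelled wild type and were 6 weeks old at purchase. Both HCC groups received activated AKT (myr-AKT) and Nras-v12 on Sleeping Beauty transposon plasmids by hydrodynamic tail vein injection, a rapid large-volume injection that brings plasmids mainly into hepatocytes. One week later they received adeno-associated virus serotype 8 (AAV8), which carried either miR-22 or no insert (blank control), and livers were taken 5 weeks after the oncogenes, 4 weeks after the virus. Healthy livers had neither plasmids nor virus, so the oncogenes, the injection and the vector cannot be told apart in a comparison with them. The labelled strain is C57BL/6, whereas the protocol and design texts name FVB/N. The protocol also lists a β-catenin plasmid, whereas the design names RAS/AKT alone. Tumor and surrounding tissue were not separated.

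The capillaries of the liver, the sinusoids, are lined by a perforated endothelium that lacks a continuous basement membrane and clears large molecules from the blood through scavenger and lectin receptors. Sinusoidal cells are marked by the scavenger receptors Stab1 and Stab2, the hyaluronan receptor Lyve1 and the C-type lectin Clec4g. Vessels of most tissues carry Kdr, the main receptor for vascular endothelial growth factor (VEGF), the junction protein Cdh5 (VE-cadherin) and the adhesion molecule Pecam1. Grouped here as capillary-type markers are Plvap, which forms the diaphragms of fenestrae and caveolae and marks fenestrated endothelium, Vwf, the carrier of clotting factor VIII, made mainly in larger vessels, and Cd34, a surface sialomucin of capillaries. In chronic liver disease and HCC, sinusoidal endothelium is known to lose its own markers and to gain those of capillaries.

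The vector of the treated group carried miR-22. Its main mature strand is shown (RefSeq), with the seed, bases 2 to 8, in capitals, because the seed sets which messages a microRNA can pair with. The 3′ UTRs of the 10 genes were searched on the transcribed strand for GGCAGCT, the match to bases 2 to 8, and for GCAGCTA, the match to bases 2 to 7 with an A after it. Only Lyve1, Kdr and Vwf held a match, each a single one, and these windows are shown 5′ to 3′ with the match in capitals (GRCm39, GENCODE M39 canonical transcripts).
mmu-miR-22-3p: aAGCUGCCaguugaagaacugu
Lyve1, chr7:110448825-110448852, minus strand, 3′ UTR: tgttccagaacccacatGGCAGCTcaca
Kdr, chr5:76093645-76093672, minus strand, 3′ UTR: atcctttcatggaatatGCAGCTAtata
Vwf, chr6:125663503-125663520, plus strand, 3′ UTR: ggcctgtGCAGCTAcagc
Of 13550 tested protein-coding genes with a 3′ UTR, 2983 (22%) held at least 1 of these motifs, against 3 of the 10 markers (30%). The median 3′ UTR length was 1341 bases in all and 1342.5 in the markers. A match describes the letters only.

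Libraries held 16664659 to 23908392 counts. Values below are CPM, counts relative to the size of their library, with library sizes scaled by edgeR's TMM factors, which ranged between 0.865 and 0.872 for healthy libraries, between 1.12 and 1.22 for untreated HCC and between 0.942 and 1.03 with miR-22, and errors are SD over 3 livers. The tissue label fitted its markers in every group: the hepatocyte markers, among them Alb, Apoa1 and Ttr, summed to between 140266 and 144021 CPM in the healthy group, between 55786 and 70289 without treatment and between 84635 and 105775 with it. In whole liver, fewer cells of a type and less RNA per cell cannot be told apart.

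Levels of different genes were compared per kilobase of canonical transcript. In healthy livers Clec4g led with 24.97 ± 0.44 CPM per kb (SD, n = 3), above every liver's value for the next gene, Plvap (18.1 ± 1.56). Plvap and Kdr (16.4 ± 2.05) overlapped between livers, and Kdr stood clear of Stab2 (11.1 ± 2.13). Stab2, Stab1 (10.5 ± 0.902), Cdh5 (9.87 ± 1.25) and Pecam1 (8.27 ± 1.34) each overlapped the next. Far below stood Vwf (1.24 ± 0.087), Lyve1 (1.03 ± 0.327) and Cd34 (1.03 ± 0.295), which overlapped as well. In untreated HCC the order changed. Plvap led with 25.5 ± 1.89 CPM per kb and stood clear of Clec4g (12.3 ± 2.52), and Cd34 reached 5.39 ± 0.382, above Lyve1 (1.60 ± 0.323) and Vwf (1.183 ± 0.084). With miR-22, Plvap (22.8 ± 1.30) and Clec4g (22.2 ± 1.16) overlapped at the top, Cdh5, Kdr, Pecam1, Stab1 and Stab2 followed in an overlapping row from 10.7 to 7.93, and Cd34 (5.01 ± 0.752), Lyve1 (2.03 ± 0.468) and Vwf (1.28 ± 0.198) came last without overlap.

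The comparison of untreated HCC with healthy livers asks how the vessel lining of the tumor-bearing liver differs. Of the sinusoidal markers, Clec4g was called lower in HCC by 2.03-fold and Stab2 by 1.71-fold. Kdr was called 2.00-fold lower as well, while Cdh5 and Pecam1 were not called. Of the capillary-type markers, Cd34 was called 5.27-fold higher. A gene was called at a Benjamini-Hochberg adjusted p under 0.05, over all genes tested, with a fold change over 1.5. Thus 1 of 10 markers was called higher, where 22.7% of all tested genes were, and 3 were called lower, where 18.1% were. The livers of the 2 groups did not overlap for 7 of the 10, where 65.3% of all tested genes did not, and the median log2 fold change was -0.0047 against 0.012 over all genes tested.

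Clec4g (ENSMUSG00000074491.9, chromosome 8, 3757064 to 3770671, GRCm39) had 85.4, 88.0 and 85.2 CPM in healthy livers 1, 2 and 3 and 42.1, 34.0 and 51.4 in untreated livers 2, 3 and 4. Every HCC liver was far below every healthy one, and the healthy livers lay within 3 CPM of each other. The log2 fold change was -1.02 (SE 0.124, edgeR adjusted p = 1.72e-05). Stab2 (ENSMUSG00000035459.18, chromosome 10, 86675054 to 86843889), which takes up hyaluronan and other waste molecules, had 88.9, 130.0 and 122.0 CPM in healthy livers and 68.2, 53.7 and 77.8 in untreated HCC. Healthy liver 1 was the lowest of its group and still above all HCC livers. Its log2 fold change was -0.77 (SE 0.169, edgeR adjusted p = 0.00179). Its relative Stab1 (ENSMUSG00000042286.13, chromosome 14, 30860970 to 30890598), also made by some macrophages, had 80.6, 92.0 and 78.6 CPM in healthy livers and 61.8, 62.2 and 69.5 in untreated HCC. The groups did not overlap here either, but the log2 fold change of -0.38 (SE 0.093, edgeR adjusted p = 0.00413) was under the fold threshold.

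Lyve1 (ENSMUSG00000030787.4, chromosome 7, 110448585 to 110462460) differed in the other direction. It had 5.47, 4.54 and 2.80 CPM in healthy livers, from 51 to 87 counts, and 8.11, 5.55 and 6.16 in untreated HCC, from 124 to 173 counts. The HCC livers were higher without overlap, although untreated liver 3 and healthy liver 1 were nearly level. With a log2 fold change of 0.63 (SE 0.26, edgeR adjusted p = 0.0534) it was not called, and it passed without healthy replicate 1 (0.84, edgeR adjusted p = 0.0282), without untreated HCC replicate 3 (0.75, 0.0492) or without miR-22-treated HCC replicate 2 (0.63, 0.0447). Of the 11 alternative settings, 7 called Lyve1 higher: upper-quartile scaling, library sizes alone, DESeq2's Wald test, limma-trend, no filter on low counts, a minimum of 10 counts and a fit to the pair of groups alone. Their edgeR, DESeq2 or limma adjusted p ran from 0.00308 to 0.0465. DESeq2 size factors (0.0546), the replicate block (0.0577), no fold threshold and glmTreat (adjusted p = 0.469) did not call it, and without healthy replicate 3 the log2 fold change was 0.39 (edgeR adjusted p = 0.225).

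The pan-endothelial markers split. Kdr (ENSMUSG00000062960.10, chromosome 5, 76093487 to 76139884) had 85.9, 110.0 and 95.4 CPM in healthy livers and 52.5, 42.9 and 50.5 in untreated HCC, a log2 fold change of -0.998 (SE 0.156, edgeR adjusted p = 1.41e-04). No liver of either group came near the other. Cdh5 (ENSMUSG00000031871.9, chromosome 8, 104828231 to 104871143), which seals the junctions between endothelial cells, had 37.8, 45.4 and 35.9 CPM in healthy livers and 41.8, 39.8 and 42.4 in untreated HCC. Pecam1 (ENSMUSG00000020717.19, chromosome 11, 106543689 to 106641454) had 26.0, 35.7 and 29.6 CPM, against 31.3, 32.0 and 36.8 in untreated HCC. For both genes the groups overlapped, with log2 fold changes of 0.059 (SE 0.117) for Cdh5 and 0.13 (SE 0.128) for Pecam1 and edgeR adjusted p of 0.69 and 0.398. A missed threshold does not show that their levels were alike.

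Among the capillary-type markers, Cd34 (ENSMUSG00000016494.9, chromosome 1, 194621029 to 194647172) differed most. It had 2.89, 3.02 and 1.70 CPM in healthy livers, from 31 to 48 counts, and 12.6, 12.9 and 14.4 in untreated HCC, from 269 to 385 counts. Every HCC liver was at least 4 times as high as any healthy liver, and the log2 fold change was 2.40 (SE 0.205, edgeR adjusted p = 1.00e-06). Plvap (ENSMUSG00000034845.6, chromosome 8, 71948674 to 71964506) had 37.7, 34.8 and 41.3 CPM in healthy livers and 52.1, 50.5 and 58.0 in untreated HCC. The groups did not overlap, but the log2 fold change of 0.50 (SE 0.094, edgeR adjusted p = 6.52e-04) stayed under the fold threshold. Vwf (ENSMUSG00000001930.17, chromosome 6, 125523737 to 125663642) had 11.8, 10.9 and 10.2 CPM in healthy livers and 11.2, 10.5 and 9.67 in untreated HCC. Its groups overlapped, with a log2 fold change of -0.069 (SE 0.143, edgeR adjusted p = 0.705).

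The calls of Stab2 and Kdr depended on the scaling between libraries, and that of Stab2 was also lost with glmTreat, edgeR's test of the fold change against 1.5 itself (adjusted p = 0.146). With library sizes alone, the median log2 fold change of all genes moved to 0.43, 80.0% of all calls were higher in HCC instead of 55.7%, and the markers called were Cd34 (2.82), Lyve1 (1.05) and Plvap (0.92) as higher and Clec4g (-0.60) as lower. Relative to the shift of 0.43, Stab2 (-0.35, edgeR adjusted p = 0.0648) and Kdr (-0.58, 0.00466) were still low, but Stab2 did not pass the test and Kdr fell short of the fold threshold. Stab1 moved to 0.046 and Vwf to 0.36 under that scaling.

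**Figure D1:**
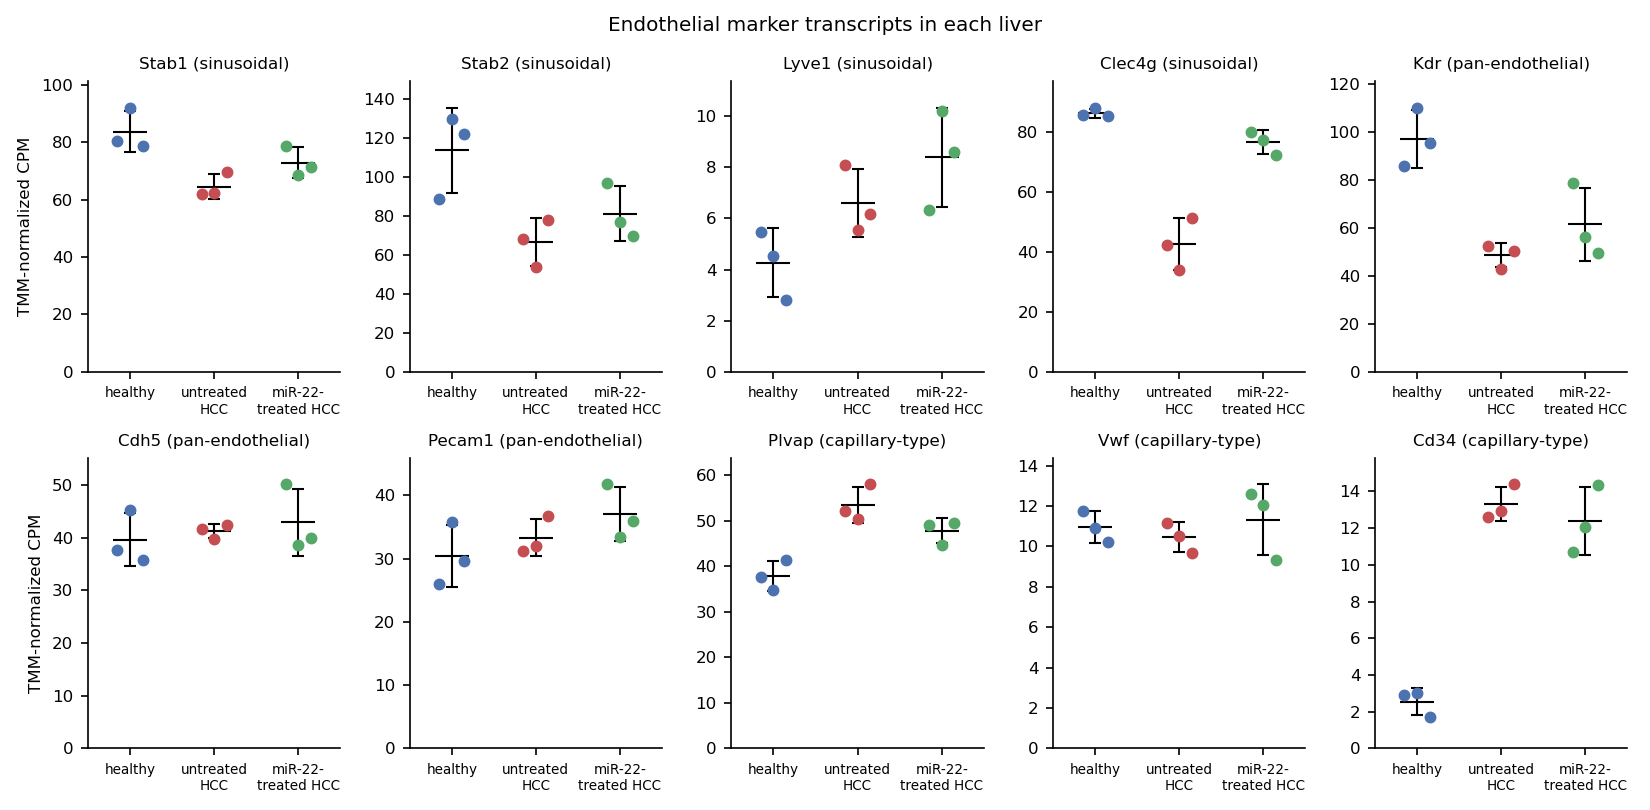
CPM (TMM-normalized, vertical axes from 0) of the 10 markers in each of 9 livers, 1 panel per gene, with points for livers in order of replicate number, horizontal bars for group means and whiskers for SD (n = 3). Clec4g drops from about 86.2 to 42.5 in untreated HCC and stands at 76.6 with miR-22, whereas Cd34 rises from 2.54 to 13.3 and stays at 12.4.

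Other genes of the vessel lining were counted from lists. Of 16 other sinusoidal genes, 11 were called lower in untreated HCC and 1 higher, with a median log2 fold change of -0.79. Ehd3, a protein of endocytic recycling, had the largest called fall of the list (-1.52, SE 0.144, edgeR adjusted p = 2.20e-06), followed by Bmp2 (-1.42), a signal with which sinusoidal cells raise hepcidin in hepatocytes. The gene called higher was Flt4, the VEGF-C receptor of lymphatic and sinusoidal endothelium (1.56, edgeR adjusted p = 4.02e-07), which the lymphatic list holds too. Of 25 other pan-endothelial genes, 7 were called lower and 3 higher (median -0.20). Ptprb, a phosphatase that acts on Tek, and Tek itself, the angiopoietin receptor, had log2 fold changes of -1.30 and -1.01, against 1.54 for Ecscr and 1.47 for Cd93, an endothelial surface lectin.

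Of 22 other genes of continuous capillaries, larger vessels and sprouting tip cells, 15 were called higher in untreated HCC and 1 lower, with a median log2 fold change of 1.42. Esm1, a proteoglycan of tip cells, had 1 to 2 counts in each healthy liver and 150 to 200 in each untreated HCC liver. Apln, a peptide ligand made by sprouting endothelium, had 0 to 3 and 50 to 90 counts, and its receptor Aplnr had 3 counts in each healthy liver and 40 to 91 in untreated HCC. All 3 were called, and the fitted fold changes of genes with so few counts depend on the prior count. The gene called lower was Aqp1, a water channel (-0.82). The list of VEGF, angiopoietin and Notch ligands and receptors, which holds Kdr itself, had 10 of 21 genes called higher and 6 lower (median 0.45). Vegfa, the ligand of Kdr, went from 358 ± 31.8 to 123 ± 15.8 CPM (log2 fold change -1.54, SE 0.114, edgeR adjusted p = 3.08e-07) and its co-receptor Nrp1 from 128 ± 4.1 to 51.5 ± 10.4 (-1.31).

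**Figure D2:**
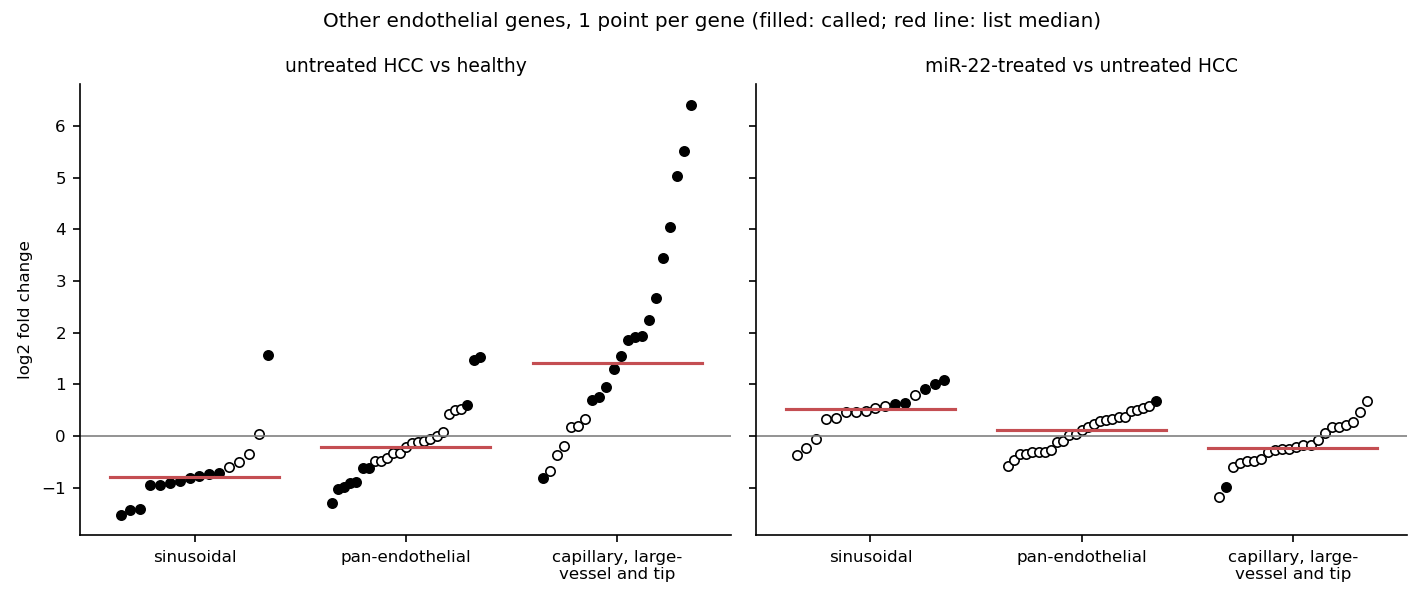
Log2 fold change (vertical axis) of the 16 other sinusoidal, 25 other pan-endothelial and 22 other capillary, large-vessel and tip genes in untreated HCC against healthy livers (left) and in miR-22-treated against untreated HCC (right), with 1 point per gene, filled where called, and a red line at each list's median. On the left the medians stand at -0.79, -0.20 and 1.42, and on the right at 0.52, 0.12 and -0.23; the highest points of the last list are genes with at most 3 counts in each healthy liver.

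Markers of other cells moved with the same comparison, and their part in the results above was not tested. Hepatocyte markers were called lower for 9 of 10 genes (median -1.62), with Serpina1c (-3.10) and Cyp2e1 (-2.65) the farthest. For Stab1, which macrophages can also make, the Kupffer cell and macrophage list had 2 of 10 called higher (Cd68 0.68 and C1qa 0.62) and 1 lower (Timd4 -0.73), with a summed level of 439 to 563 CPM in healthy livers and 465 to 539 in untreated HCC, and Csf1r at 69.9 ± 5.13 and 77.8 ± 2.15. For Lyve1, the lymphatic list had 1 of 6 called higher, the Flt4 named above, and none lower, and it summed to between 333 and 386 CPM in the healthy group and, without overlap, between 403 and 488 in untreated HCC. Most of that sum came from Prox1 (203 ± 11.9 and 176 ± 32.3), Reln (119 ± 18.4 and 141 ± 26.3), which the stellate cell list holds too, and Flt4 (41.4 ± 6.53 and 122 ± 9.1), while Pdpn, Ccl21a and Mmrn1, which define lymphatic vessels, held no more than 28 counts in any library. For Vwf and Pecam1, which platelets carry, 4 of 10 platelet genes passed the filter, 2 were called higher and 1 lower, and the list summed to 5.03 to 5.99 CPM in healthy livers and 5.72 to 6.49 in untreated HCC. Pf4 went from 1 to 6 counts up to 32 to 40, and Itga2b stood at 50 to 82 and 60 to 83 counts.

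For Cd34, which blood progenitors and fibroblasts also carry, the progenitor list had 2 of 7 tested genes called higher (Flt3 1.80 and Cd48 0.93) and 1 lower (Hlf -1.18), with Kit at 8.27 ± 0.797 CPM in healthy livers and 7.96 ± 1.46 in untreated HCC. The progenitor list summed to 94.8 to 103 CPM in healthy livers and 51.1 to 65.4 in untreated HCC, most of it from Hlf. Stellate cell and fibroblast genes had 3 of 12 called higher and 3 lower, among them Col1a1 (5.06), a collagen chain of activated fibroblasts, the matrix protein Ecm1 (-1.90) and the retinol-storing enzyme Lrat (-1.5), while the fibroblast marker Pi16 held 5 to 11 counts in healthy livers and 7 to 40 in untreated HCC. Smooth muscle and pericyte genes had 5 of 8 called higher, among them the pericyte proteoglycan Cspg4, which went from 2 to 5 counts up to 56 to 154, and Acta2 (2.77), mesothelial genes had 1 of 6 called each way (Wt1 1.35 and Upk3b -1.2), and leukocyte genes had 5 of 10 called higher, S100a9 by 3.51, and 1 lower.

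The comparison of miR-22-treated with untreated HCC asks how treated and untreated tumor-bearing livers differ. The authors report a lower tumor load with miR-22. A smaller share of tumor tissue and a change within the vessels therefore cannot be told apart here. Clec4g was the 1 marker of 10 called higher with miR-22, by 1.80-fold, where 8.32% of all tested genes were, and 0 were called lower, where 5.47% were. At an unadjusted p under 0.05, edgeR's test also found Clec4g alone. The livers did not overlap for 2 of the 10, Clec4g and Plvap, where 39.3% of all tested genes did not, and the median log2 fold change was 0.16 against 0.0020 over all genes.

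Clec4g had 80.1, 77.4 and 72.2 CPM in treated livers 2, 3 and 4, against 42.1, 34.0 and 51.4 in untreated livers 2, 3 and 4. All treated livers were above all untreated ones, and the log2 fold change was 0.85 (SE 0.123, edgeR adjusted p = 7.59e-04). The call was lost only where the fold change was tested against 1.5 itself with edgeR's glmTreat (adjusted p = 0.133). Stab2 had 96.9, 76.8 and 69.6 CPM with miR-22 and overlapped untreated HCC, with a log2 fold change of 0.28 (SE 0.169, edgeR adjusted p = 0.252). Stab1, at 78.8, 68.4 and 71.5 CPM, overlapped too (0.18, SE 0.094, edgeR adjusted p = 0.196). Lyve1 had 6.35, 10.2 and 8.61 CPM, of which treated liver 2 lay within the untreated range (0.34, SE 0.248, edgeR adjusted p = 0.349).

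Kdr had 78.7, 56.2 and 49.5 CPM with miR-22. Treated liver 2 stood well above the others and treated liver 4 within the untreated range, and the log2 fold change of 0.34 (SE 0.156, edgeR adjusted p = 0.14) did not pass. Treated liver 2 also had the highest Cdh5 (50.2, against 38.6 and 40.0 CPM) and Pecam1 (41.8, against 33.4 and 36.0) of the 9 livers, and without it the log2 fold change of Cdh5 went from 0.055 to -0.074. Plvap, at 49.1, 44.6 and 49.6 CPM, lay below every untreated liver, but with a log2 fold change of -0.16 (SE 0.094, edgeR adjusted p = 0.235) it did not pass. Vwf had 12.6, 12.1 and 9.32 CPM and Cd34 10.7, 12.1 and 14.4, both overlapping untreated HCC, with log2 fold changes of 0.11 (SE 0.142) and -0.10 (SE 0.177) and edgeR adjusted p of 0.612 and 0.716. The 3 genes with a seed match, Lyve1, Kdr and Vwf, had log2 fold changes of 0.34, 0.34 and 0.11. Neither these nor the markers without a match were called lower with miR-22, where 5.47% of all tested genes were. An action of miR-22 on them was not tested.

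Among the other sinusoidal genes, 5 of 16 were called higher with miR-22 and 0 lower (median 0.52). They were Bmp2 (1.08, edgeR adjusted p = 0.00233) and Clec1b (1.02), a lectin that platelets carry as well, and, named after their values were seen, Ehd3 (0.92), Oit3 (0.64) and Dnase1l3 (0.63). Pan-endothelial genes had 1 of 25 called higher, Ptprb (0.68), and 0 lower, with a median of 0.12. Of the capillary, large-vessel and tip genes 0 of 22 were called higher and 1 lower, the adhesion molecule Mcam (-0.98), with a median of -0.23, and the VEGF, angiopoietin and Notch list had 1 of 21 called higher (Nrp1 0.79) and 1 lower (Jag1 -1.02). Hepatocyte markers were called higher for 6 of 10 genes (median 0.94, Tat 2.52), and their part in the Clec4g result was not tested. The Kupffer cell and macrophage, lymphatic, platelet, progenitor and smooth muscle lists had 0 genes called in either direction. Stellate cell and fibroblast genes had 4 of 12 called higher (Lrat 1.1) and 1 lower (Col1a1 -0.94), mesothelial genes 1 of 6 higher (Upk3b 1.5) and leukocyte genes 1 of 10 higher (Nkg7 1.41).

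With library sizes alone, the median of all genes moved to -0.23 and 27.8% of all calls were higher with miR-22 instead of 60.4%, while Clec4g remained the marker called.

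Set against healthy livers, miR-22-treated HCC showed 2 of 10 markers called higher, Cd34 and Lyve1, where 16.9% of all tested genes were, and 1 called lower, Kdr, where 7.05% were. The livers did not overlap for 5 of 10, where 48.8% of all tested genes did not, and the median log2 fold change was 0.079 against 0.022 over all genes. This comparison shares its livers with both others and is given for its own values. Cd34 had a log2 fold change of 2.29 (SE 0.207, edgeR adjusted p = 4.81e-06), Lyve1 of 0.98 (SE 0.26, 0.0109) and Kdr of -0.66 (SE 0.156, 0.00545). Clec4g, at 72.2 to 80.1 CPM with miR-22 and 85.2 to 88.0 in healthy livers, did not overlap, but its log2 fold change of -0.17 (SE 0.122, edgeR adjusted p = 0.3) did not pass. Stab2 (-0.49, SE 0.169, 0.039) and Plvap (0.33, SE 0.095, 0.016) passed edgeR's adjusted p but not the fold threshold. Stab1 (-0.20), Cdh5 (0.11), Pecam1 (0.28) and Vwf (0.044) had edgeR adjusted p from 0.103 to 0.836.

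The calls of Kdr and Lyve1 in this comparison rested on single livers. Kdr was under the fold threshold without healthy replicate 2 (-0.57, edgeR adjusted p = 0.0284) or without miR-22-treated HCC replicate 4 (-0.52, 0.0214), and Lyve1 missed the threshold without healthy replicate 3 (0.73, edgeR adjusted p = 0.0511). Stab2 was called lower without healthy replicate 1 (-0.65, edgeR adjusted p = 0.0113) or without miR-22-treated HCC replicate 2 (-0.65, 0.0162). With library sizes alone, the median of all genes moved to 0.21, the share of calls that were higher went from 70.6% to 85.2%, and Kdr (-0.47) was not called. With glmTreat neither Kdr nor Lyve1 was called (edgeR adjusted p = 0.537 and 0.146). The capillary, large-vessel and tip genes had 14 of 22 called higher and 0 lower (median 1.15), and the VEGF, angiopoietin and Notch list 8 of 21 higher and 4 lower, Vegfa by -1.06. The other sinusoidal genes had 1 of 16 called higher and 3 lower (median -0.25), of which Gata4 (-0.82), a transcription factor of sinusoidal identity, was the farthest, and pan-endothelial genes 2 of 25 higher and 3 lower.

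Beside the higher Cd34 and Lyve1 of this comparison, 2 of 7 tested progenitor genes were called higher and 1 lower, 4 of 12 stellate cell and fibroblast genes higher and 1 lower, and 1 of 6 lymphatic genes higher (Flt4) and 1 lower (Prox1 -0.62). In treated livers the progenitor list summed to between 72.1 and 81.0 CPM and the lymphatic list to between 301 and 361, against 333 to 386 in the healthy group, and Pi16 held 8 to 25 counts. Hepatocyte genes had 5 of 10 called lower, and higher calls numbered 3 of 10 Kupffer cell and macrophage genes, 4 of 8 smooth muscle and pericyte genes, 2 of 4 tested platelet genes and 6 of 10 leukocyte genes, with 0 of 6 mesothelial genes called. The part of these cells in the marker results was not tested.

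**Figure D3:**
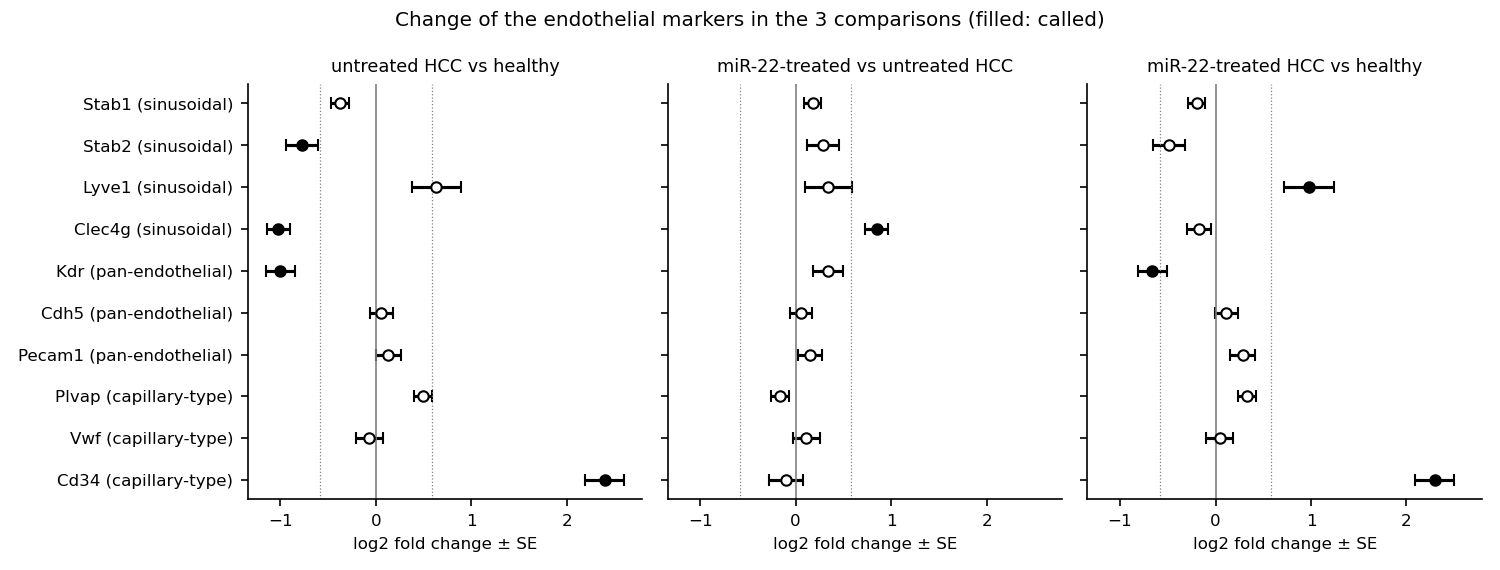
Log2 fold change (horizontal axis) with its SE of the 10 markers in the 3 comparisons, with filled points where called and dotted lines at a fold change of 1.5 in either direction. Clec4g stands at -1.02 in untreated HCC against healthy livers and at 0.85 with miR-22 against untreated HCC, while Cd34 stands at 2.40 and -0.10.

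To set marker levels against the amount of endothelial RNA, each sinusoidal and capillary-type marker was expressed within its library as log2 CPM minus the mean log2 CPM of Kdr, Cdh5 and Pecam1. These ratios are given without a test, and since Kdr itself was lower in HCC, the reference moved too. Clec4g stood at 0.82 ± 0.163 (SD, n = 3) in healthy livers, 0.048 ± 0.21 in untreated HCC and 0.74 ± 0.179 with miR-22, and untreated HCC overlapped neither other group. Stab2 went from 1.203 ± 0.184 in healthy livers to 0.70 ± 0.182 and 0.82 ± 0.067, both HCC groups being below every healthy liver. Stab1, at 0.78, 0.67 and 0.67, overlapped in all 3 groups. Cd34 went from -4.25 ± 0.414 to -1.60 ± 0.079 and -1.88 ± 0.421, and Plvap from -0.36 ± 0.288 to 0.40 ± 0.046 and, with miR-22, to 0.065 ± 0.209, above every healthy and below every untreated liver. Lyve1 went from -3.53 ± 0.518 to -2.62 ± 0.256 and -2.45 ± 0.562, where treated livers overlapped healthy ones, and Vwf (-2.14, -1.95 and -2.01) overlapped throughout.

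With Cdh5 alone as the reference, the differences between untreated HCC and healthy livers were -1.104 for Clec4g in place of -0.78, -0.83 for Stab2 in place of -0.50, -0.44 for Stab1 in place of -0.11, 0.59 for Lyve1 in place of 0.91, 0.43 for Plvap in place of 0.76, 2.32 for Cd34 in place of 2.65 and -0.13 for Vwf in place of 0.20. The direction turned for Vwf alone among these 7 markers, as it did for Vwf in the other two comparisons. Whether livers overlapped depended on the reference for 3 markers. With Cdh5 alone, Stab1 lay below every healthy liver in both HCC groups (-0.31 with miR-22 in place of -0.11), Lyve1 in untreated HCC overlapped healthy livers, and Plvap with miR-22 overlapped healthy livers (0.22 in place of 0.43) while it stayed below every untreated one (-0.21). Clec4g, Stab2, Cd34 and Vwf kept their overlap or separation in all 3 comparisons.

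**Figure D4:**
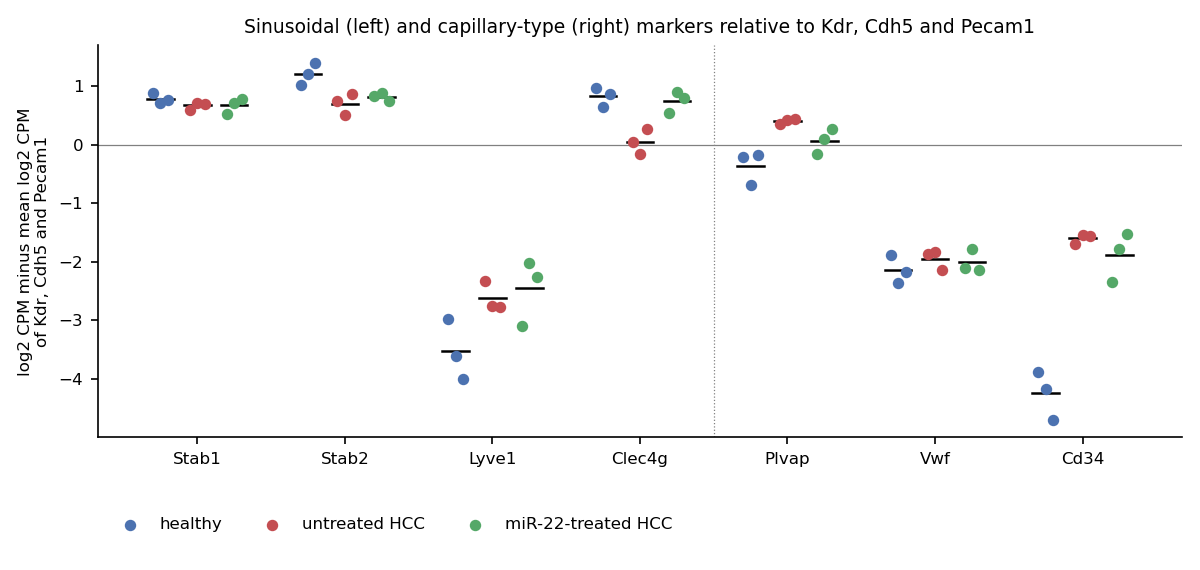
Log2 CPM of each sinusoidal and capillary-type marker minus the mean log2 CPM of Kdr, Cdh5 and Pecam1 in the same library (vertical axis), with 1 point per liver, colored by group, and black bars at group means. Clec4g drops to 0.048 in untreated HCC and stands at 0.74 with miR-22, and Cd34 stands at -4.25 in healthy livers and at -1.60 and -1.88 in the HCC groups.

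The pattern of each gene over the 9 livers was described by its log2 CPM centred on its own mean, and likeness by the root mean square difference between such patterns over the 9 livers, in log2 units, where 0 means the same pattern. Livers of 1 group share their treatment, so likeness follows the groups. Among the 45 pairs of markers the closest were Cdh5 with Pecam1 (0.113) and Stab2 with Kdr (0.153), and the farthest was Kdr with Cd34 (1.54). Over all genes tested, Stab2 was most like Cyb5b (0.084), Aqp1 (0.105) and Clec14a (0.112), of which Aqp1 and Clec14a stand on the endothelial lists above. Cdh5 was most like Gtf2h2 (0.065), Akap10 (0.076) and Slc44a2 (0.078), and Plvap most like Scamp2 (0.064), Pitpna (0.071) and Slc35c2 (0.073). For scale, the centred patterns of Stab2, Cdh5 and Plvap themselves had root mean squares of 0.386, 0.137 and 0.224.

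Libraries were not strand-specific. For 8 of the 10 markers, all but Lyve1 and Pecam1, the span of an annotated gene of the other strand, introns included, met an exon. Of these genes, Nt5dc2 at Stab1 and Gtpbp3 at Plvap were protein-coding. Whether exons of both genes overlap was not tested, and where they do, reads of both strands cannot be told apart.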

How the data were processed

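Whole-liver RNA was sequenced from 3 healthy, 3 untreated HCC and 3 miR-22-treated HCC livers with a non-directional kit. The authors deposited unnormalized whole-number counts for 55401 genes, made with Salmon (build GRCm39), and their submitted processing notes name FastQC 0.11.7 and DESeq2 1.18. A second deposited table of normalized values was not used here. Libraries held 16664659 to 23908392 counts. Chi-square per degree of freedom between replicate livers ranged from 6.15 up to 30.1, so spread between livers exceeded counting error. The labels number the replicates without stating that each is a separate mouse, so p-values measure the spread between these samples.

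Counts were tested with edgeR 4.0.16 in R 4.3.3 with TMM scaling and the filterByExpr filter, by its two-sided quasi-likelihood test, and all 3 groups shared the fit, which had no covariates. Genes were called at a Benjamini-Hochberg adjusted p under 0.05 over 15717 tested genes together with a fold change above 1.5. Ratios used log2 CPM with a prior count of 2. Gene positions, lengths and 3′ UTRs came from GENCODE M39 on GRCm39, and lengths are of canonical transcripts, not Salmon's effective lengths. The count test was checked on simulated counts with known changes.

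The 10 markers and the 13 lists (151 distinct genes, written by hand) were chosen with earlier results of these data known. List genes were named from among the 2 called genes that rose most and the 2 that fell most in each list and comparison, not all of which are named, plus markers of other cells known to carry a member, and for Stab2, Cdh5 and Plvap the 3 genes most alike. Most list genes enter as counts only, and some that the rule allows are not reported here. Alternatives were DESeq2 size factors, upper-quartile scaling, library sizes alone, DESeq2 1.42.0 (Wald test), limma-trend 3.58.1, testing without the low-count filter (29621 genes) or with a minimum of 10 counts in each library (12836 genes), fitting 2 groups at a time, blocking on the replicate number, no fold threshold, glmTreat, and each liver left out in turn. For the ratios they were Cdh5 alone as reference and a prior count of 0.5.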

Additional observations from a re-analysis of the deposited data

How the results depend on the processing

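Clec4g was called lower and Cd34 higher in untreated HCC than in healthy livers in all 11 alternatives and without each of the 9 livers. The number of markers called in untreated HCC against healthy livers (4) stayed between 3 and 6, and without any one liver between 4 and 5. With glmTreat the number fell to 0 between the HCC groups, where 1 marker, Clec4g, had an unadjusted p under 0.05 and each other tool called Clec4g, and to 1 (from 3) for miR-22-treated HCC against healthy livers, where no fold threshold gave 5. Genes called on the lists were 55 with glmTreat in place of 85 for untreated HCC against healthy livers, 33 in place of 59 for miR-22-treated HCC against healthy livers, and 4 in place of 22 between the HCC groups, where no fold threshold gave 39 and leaving out single livers gave 14 (without untreated HCC replicate 3) to 35 (without miR-22-treated HCC replicate 4). These settings differ from the reported one in the threshold or the livers used.

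Directions turned only for uncalled values. With library sizes alone, the log2 fold changes of untreated HCC against healthy livers became 0.046 for Stab1 and 0.36 for Vwf, those between the HCC groups -0.18 for Cdh5, -0.080 for Pecam1, -0.057 for Stab1 and -0.13 for Vwf, and that of Clec4g in miR-22-treated HCC against healthy livers 0.014. Without single livers, Cdh5 ranged from -0.021 to 0.16 in untreated HCC against healthy livers, from -0.074 to 0.12 between the HCC groups and from -0.024 to 0.21 in treated HCC against healthy livers, where Vwf ranged from -0.053 to 0.17.

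With the replicate block, 4, 1 and 4 markers were called in the 3 comparisons and 79, 19 and 49 list genes, Vwf turned to 0.077 in untreated HCC, and Stab2 was called lower in miR-22-treated HCC than in healthy livers (-0.65, edgeR adjusted p = 0.0249). No other call of a marker changed. The numbers were not taken as pairing the livers: deviations from group means correlated at -0.24 to 0.026 (mean -0.069) over the 7 same-numbered pairs and at a mean of 0.024 over the 20 other pairs. Depth limits Cd34 and Lyve1 most, with as few as 31 and 51 counts in a healthy liver.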
